A study of Mus musculus with 6 samples.

Results

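The genes described here are 10 heat shock chaperones, Hspa1a, Hspa1b, Dnajb1, Hsph1, Dnaja1, Hsp90aa1, Hsp90ab1, Hspa8, Hspd1 and Hspe1, of the 33696 genes counted in single cells of mouse liver. They were divided into 4 inducible members (Hspa1a, Hspa1b, Dnajb1 and Hsph1) and 6 constitutive members (the others), and followed across T, NK, ILC1, B and myeloid cells. The cells were liver mononuclear cells from wild-type (WT) mice fed a 60% high-fat diet (WT HFD), WT mice fed that diet with 0.25% hyodeoxycholic acid (WT HFD+HDCA), and Ja18-/- mice fed the diet with the acid (iNKT KO HFD+HDCA). All 3 groups therefore had the high-fat diet, and no knockout group without HDCA was analysed here. Hyodeoxycholic acid is a bile acid. Invariant natural killer T (iNKT) cells use a receptor built with the Ja18 segment, so mice without it lack them. Feeding lasted 12 weeks. Neither the age and sex nor the number of mice behind a sample is stated in the labels. The study asked how the bile acid acts on liver immune cells and what remains of this without iNKT cells.

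Heat shock chaperones bind unfolded or newly made proteins and help them fold, refold or reach a degradation pathway. HSP70 proteins hold short stretches of an unfolded chain, J-domain partners of the HSP40 family bring the substrate and start ATP hydrolysis, and nucleotide exchange factors such as HSP110 reset the cycle. HSP90 works later, on kinases and receptors that are nearly folded, and HSP60 with HSP10 encloses chains inside mitochondria. Constitutive members are made in all growing cells, whereas inducible members are switched on by the transcription factor HSF1, which binds repeats of nGAAn called heat shock elements. In blood and tissue leukocytes, inducible members also respond to warming and handling.

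Hspa1a and Hspa1b encode nearly the same inducible HSP70 protein, and the sequences before their starts are shown because they let a reader see how alike the copies are and where the core of a heat shock element lies. The 250 bases before each start differ at 3 bases and are 98.8% alike. The sequences below come from RefSeq, build GRCm38.p6, 5′ to 3′ on the strand of the gene (minus for both), and capitals mark the letters GAANNTTC or TTCNNGAA, the head-to-head and tail-to-tail cores of a heat shock element. Both cores read the same on the other strand.
Hspa1a, chr17:34972157-34972406: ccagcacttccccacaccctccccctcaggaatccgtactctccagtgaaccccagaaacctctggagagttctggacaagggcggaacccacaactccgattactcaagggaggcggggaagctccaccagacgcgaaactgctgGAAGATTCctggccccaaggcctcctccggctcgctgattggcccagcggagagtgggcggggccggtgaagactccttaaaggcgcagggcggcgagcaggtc
Hspa1b, chr17:34959239-34959488: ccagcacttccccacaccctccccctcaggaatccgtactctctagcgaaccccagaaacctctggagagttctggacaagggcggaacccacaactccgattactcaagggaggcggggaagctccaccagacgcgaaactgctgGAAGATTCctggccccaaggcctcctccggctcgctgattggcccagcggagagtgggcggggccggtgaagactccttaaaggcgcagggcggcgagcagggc
Each window held 1 core, which began 104 bases before the start. Shorter stretches around the cores of Hsph1 (minus strand), Dnaja1 (plus strand) and Hspe1 (plus strand) are shown to compare their spacing.
Hsph1, chr5:149636337-149636395: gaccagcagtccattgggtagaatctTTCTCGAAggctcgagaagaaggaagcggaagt
Dnaja1, chr4:40722318-40722377: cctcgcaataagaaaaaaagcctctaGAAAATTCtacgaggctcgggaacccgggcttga
Hspe1, chr1:55088033-55088102: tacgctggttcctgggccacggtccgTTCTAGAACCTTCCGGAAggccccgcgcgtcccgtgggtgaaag
In Hspe1 the capitals are 3 cores that overlap. They also lie before the start of Hspd1, which is transcribed in the opposite direction from a start 215 bases away, so this pair of mitochondrial chaperones shares them. A window was found for 7 of the 10 members, and 6 of these 7 had a core in at least 1 of their windows. These members had 12 windows in all, and Dnaja1 and Hspd1 also had windows without a core. Dnajb1 had none in either of its windows, which says only that these letters are not there. Among the 32851 windows of the table, 12.8% held at least 1 core and 1.46% at least 2. These shares are per window, so they are not a like measure for the count of members. Hsp90aa1, Hsp90ab1 and Hspa8 were not in the table.

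Each group had 1 RNA library and 1 library of T cell receptor (TCR) contigs from the same cells, so every comparison below is between single libraries and nothing measures the spread between mice. No test of a difference was run. Intervals are 95% intervals for counting error only. The libraries held 6479, 10228 and 7153 barcodes, always in the order WT HFD, then WT HFD+HDCA, then iNKT KO HFD+HDCA, with 44332213, 70776925 and 46600746 unique molecular identifiers (UMIs), and 6183, 9680 and 6838 cells were kept. The TCR segment Traj18, removed in the knockout, had 172, 160 and 0 UMIs. Between 67 and 93 barcodes were shared by a pair of libraries, at most 1.30% of either.

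T cells had a TCR contig (2268, 3154 and 1951 cells), and the other classes had no contig and passed marker gates. NK (500, 850 and 516) and ILC1 (99, 134 and 263) carried at least 2 UMIs of Ncr1, Klrb1c and Klre1 and were divided by their own markers, B cells (1716, 2800 and 2148) carried at least 3 of a B cell marker list that includes Cd79a, Cd79b and Ms4a1, and myeloid cells (390, 831 and 425) carried at least 5 of Lyz2, Csf1r and Cst3, each with a limit on markers of the other classes. The genes highest in each class over the others were Cd3e and Cd3d in T cells, Gzma and Klra4 in NK cells, Gzmc and Xcl1 in ILC1, Cd79a in B cells and Lyz2 in myeloid cells. None of the markers that set ILC1 apart from NK cells (Cxcr6, Itga1, Cd200r1, Tnfsf10 and Il7r) was among the 10 genes highest in ILC1, so ILC1 names a gate here, and of the NK against ILC1 choice 30, 67 and 85 cells lay within 1 UMI of a tie. The myeloid gate also held S100a8 and S100a9, genes of neutrophils, and the neutrophil list summed to 2114, 5476 and 2651 CPM there (UMIs of a gene or list per 1000000 UMIs of the class). Hepatocyte markers summed to at most 9.79 CPM in any class and library, platelet markers to 1.11 and stellate markers to 0.645. Endothelial markers lay between 48.1 and 174 CPM and plasma cell markers between 40.1 and 416. Of the 4 endothelial markers, Kdr had no UMI in T, NK, ILC1 or B cells of any library. In ILC1 of WT HFD only 1 of them, Pecam1, was detected. Globin genes summed to 374 CPM in B cells of WT HFD and to at most 2.84 in every other class and library. The treatment text names CD4 cells while the extraction text names a sort for CD45, and B, NK and myeloid cells were present in all 3 libraries. Levels are CPM of the summed UMIs of a class, not divided by gene length, so levels are compared between classes and libraries and not between genes.

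Hspa1a and Hspa1b, the inducible HSP70 genes, were carried by a minority of lymphocytes, by more of the myeloid cells, and were highest in the knockout in every class. Because the copies share nearly all of their sequence, the division of UMIs between them is uncertain, and their sum is given first. In T cells the sum was 33.5 (30.8 to 36.4), 24 (22 to 26.1) and 90.6 (85.7 to 95.7) CPM. Their share of T cells with at least 1 UMI was 12.2% (10.9% to 13.6%), 9.61% (8.6% to 10.7%) and 24.4% (22.6% to 26.4%). In B cells the sum was 71.5 (65.7 to 77.7), 35.9 (32.7 to 39.4) and 163 (155 to 172) CPM, and 11%, 8.68% and 21.7% of B cells carried it. The knockout stood above both WT libraries in T and B cells, and WT HFD+HDCA below WT HFD. In NK cells the sum was 60.2 (51.5 to 70.02), 16.9 (13.5 to 21) and 91.4 (80.5 to 103) CPM with 12.6%, 5.88% and 14.3% of cells, and the lowest library was again WT HFD+HDCA. ILC1 had 10, 26 and 141 UMIs in all, which gave 12.3 (5.9 to 22.6), 29.1 (19 to 42.6) and 70.7 (59.5 to 83.3) CPM in 8.08%, 5.22% and 16% of cells. In myeloid cells the sum reached 129 (118 to 141), 101 (94.5 to 109) and 261 (245 to 277) CPM and was carried by 41.3%, 33.7% and 54.8% of cells. No class here is known to lack these genes, so no background share was measured, and the shares include any free RNA in the droplets.

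**Figure D1:**
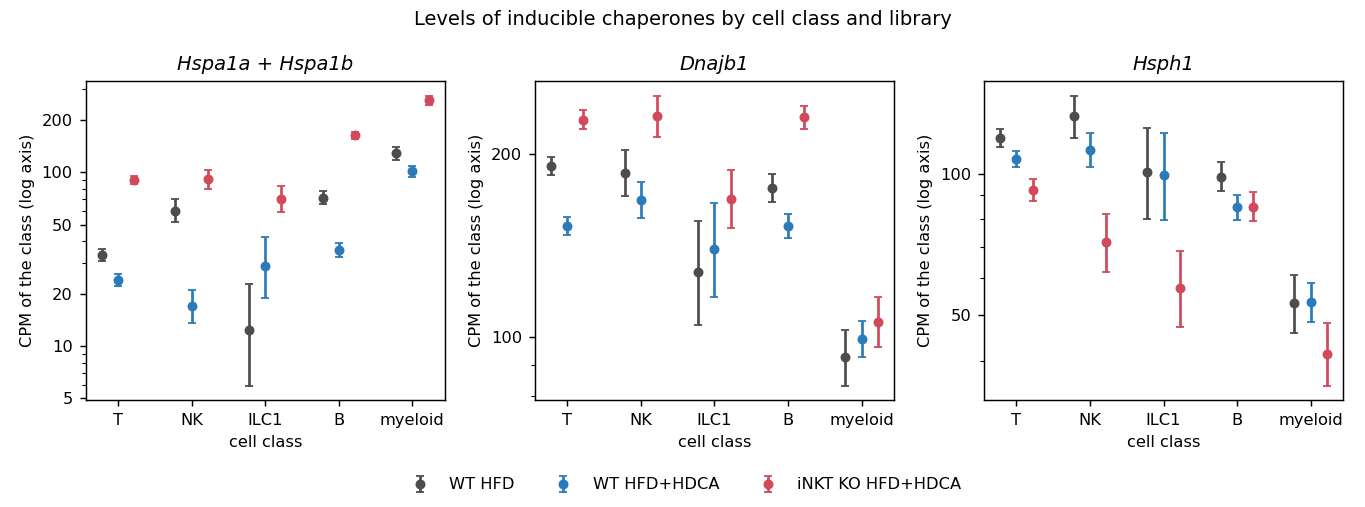
Level of the Hspa1a and Hspa1b sum, Dnajb1 and Hsph1 (CPM of the class, log axis) in 5 cell classes (x axis) of the 3 libraries (colours), with exact Poisson 95% intervals as bars. The knockout is highest for Hspa1a and Hspa1b in each class, 90.6 CPM in T cells against 33.5 and 24.0, whereas Hsph1 is lowest there in T, NK, ILC1 and myeloid cells.

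Depth differed between classes, and myeloid cells had a median of 10096, 9738 and 9631 UMIs and B cells 4427.5, 4308.5 and 4131. With every cell thinned to 2000 UMIs, the share carrying Hspa1a or Hspa1b was 5.14%, 4.03% and 13.1% in T cells, 6.72%, 3.7% and 9.63% in NK cells, 2.02%, 4.55% and 7.81% in ILC1, 7.53%, 4.998% and 15.5% in B cells and 15.8%, 15.5% and 30.9% in myeloid cells. Thinning left out 12, 24 and 31 T cells, 9, 13 and 28 NK cells, 43, 39 and 109 B cells and 16, 40 and 20 myeloid cells for being shallower, and 0 to 7 ILC1 cells per library. At equal depth the myeloid cells still had the highest share in each library, and the knockout still had the highest share in each class. In NK cells and ILC1 the knockout interval overlapped that of WT HFD, and in ILC1 also that of WT HFD+HDCA. These shares came from 47 knockout against 33 WT HFD NK cells with the pair, and from 20 against 2 ILC1. WT HFD+HDCA had 6 such ILC1.

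**Figure D2:**
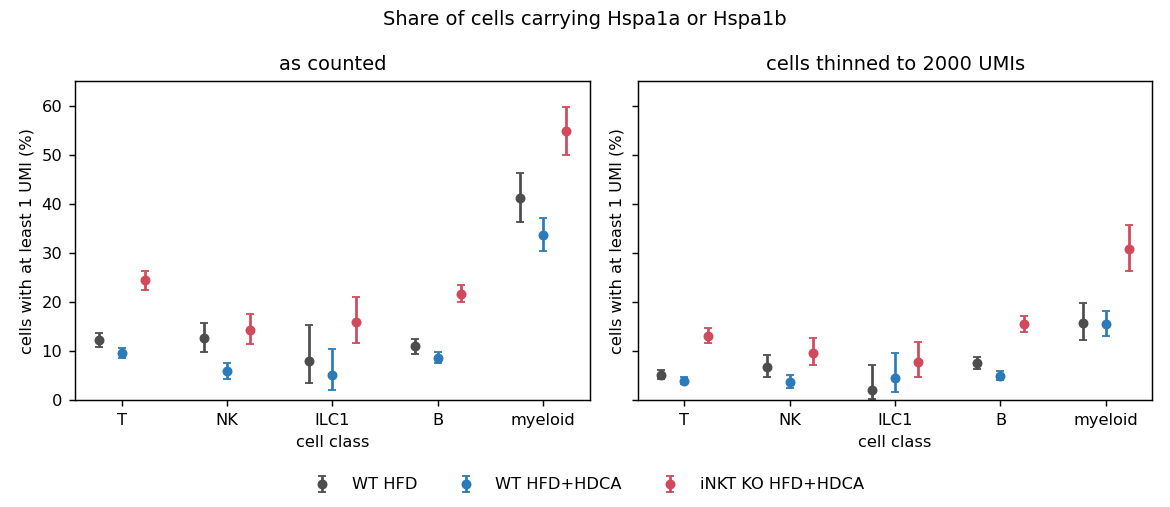
Share of cells with at least 1 UMI of Hspa1a or Hspa1b (y axis, percent) by cell class and library, as counted (left) and with cells thinned to 2000 UMIs (right), with exact Clopper-Pearson 95% intervals. Myeloid cells of the knockout stand highest in both panels, at 54.8% and 30.9%.

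Taken separately, Hspa1a was 8.01, 7.82 and 24.8 CPM in T cells, 7.13, 5.45 and 15.9 in NK cells, 4.92, 1.12 and 13.5 in ILC1, 21.8, 9.63 and 45 in B cells and 62.8, 52.3 and 121 in myeloid cells. Its order of classes by mean level was myeloid, B, T, NK and ILC1, and only the step from myeloid to B was free of overlap between the ranges over the 3 libraries. Hspa1b was 25.5, 16.2 and 65.8 CPM in T cells, 53.1, 11.5 and 75.5 in NK cells, 7.38, 27.9 and 57.1 in ILC1, 49.7, 26.3 and 118 in B cells and 66, 49.1 and 140.0 in myeloid cells. All neighbours in its order overlapped. Hspa1a had only 4, 1 and 27 UMIs in ILC1, too few for a direction in that class.

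In WT mice the diet with HDCA went with less inducible HSP70 RNA in T, NK and B cells. The ratio of the Hspa1a and Hspa1b sum, WT HFD+HDCA over WT HFD, was 0.281 (0.214 to 0.368) in NK cells, 0.502 (0.443 to 0.569) in B cells, 0.716 (0.636 to 0.807) in T cells and 0.787 (0.703 to 0.882) in myeloid cells. In ILC1 it was 2.36 (1.1 to 5.49), from 26 UMIs against 10, and 53.8% of the 26 UMIs lay in 2 cells. The myeloid ratio was 0.966 with cells thinned to 2000 UMIs, 1.002 in patrolling monocytes alone and 0.808 in cells with at most 1 UMI of the neutrophil list. With stricter gates ILC1 had 4 UMIs in each library and the ratio was 0.569. Among genes with at least 50 UMIs in both libraries together, the members at least 1.5-fold lower were Hspa1b in T cells, Hspa1b in NK cells, and Hspa1a and Hspa1b in B cells. The share of all tested genes that low was 1.73% in T cells, 1.92% in NK cells and 1.55% in B cells. In ILC1 and myeloid cells no member was 1.5-fold lower, where 3.39% and 2.13% of genes were. No member with 50 UMIs was 1.5-fold higher in any class, where 1.77% of genes were in T cells, 2.11% in NK cells, 3.48% in ILC1, 2.16% in B cells and 5.52% in myeloid cells.

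In the knockout on the same diet, inducible HSP70 RNA was several times higher than in WT HFD+HDCA in all 5 classes. The ratio of the Hspa1a and Hspa1b sum was 5.4 (4.2 to 6.99) in NK cells, 4.54 (4.09 to 5.05) in B cells, 3.78 (3.41 to 4.18) in T cells, 2.57 (2.35 to 2.82) in myeloid cells and 2.43 (1.59 to 3.85) in ILC1. In ILC1 the ratio was 8.73 with stricter gates and 1.53 without the 1% of cells with most inducible UMIs. In myeloid cells with at most 1 UMI of the neutrophil list it was 2.53. Members at least 1.5-fold higher were Hspa1a, Hspa1b and Dnajb1 in B cells (3 of 4 inducible members), Hspa1a and Hspa1b in T, NK and myeloid cells, and Hspa1b in ILC1. Of all tested genes, 2.51% were that much higher in B cells, 2.29% in T cells, 2.39% in NK cells, 3.02% in myeloid cells and 4.55% in ILC1. Members at least 1.5-fold lower were Hsph1 in NK cells and ILC1 and Hspd1 in myeloid cells, and the share of genes that low was 3.52% in NK cells, 4.75% in ILC1, 6.17% in myeloid cells, 3.36% in T cells and 2.05% in B cells. Both comparisons use the WT HFD+HDCA library, which was the lowest for the Hspa1a and Hspa1b sum in T, NK, B and myeloid cells. Knockout mice fed HFD without HDCA were not analysed here, and genotype and library cannot be told apart.

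Other measures moved with the knockout library. Mitochondrial RNA was 1.48, 1.48 and 1.73 percent of UMIs in T cells and 1.79, 1.81 and 2.06 percent in B cells. Lyz2, a myeloid gene, was seen in 3.44%, 4.06% and 9.07% of T cells and 2.16%, 3.54% and 5.45% of B cells, most often in the knockout. The part of either in the chaperone values was not tested. Per UMI of Lyz2 there were 7.02, 4.26 and 6.81 UMIs of Hspa1a and Hspa1b in T cells and 14.8, 4.55 and 12 in B cells, against 0.00891, 0.00669 and 0.0182 in myeloid cells. The gates allowed T and B cells at most 2 UMIs of Lyz2, Csf1r and Cst3 and required at least 5 in myeloid cells. This contrast between classes was thus set in part by the gates, and the source of the RNA was not tested. Stricter gates allowed T cells no UMI of the B and myeloid gate genes, without a limit on NK and ILC1 gate genes. They allowed B cells no UMI of the T, NK and ILC1, or myeloid gate genes. With them the knockout ratio was 3.73 in T cells and 3.65 in B cells. Under 5% mitochondrial UMIs it was 3.79 and 4.57. Immediate early genes, which also respond to cell handling, summed to 5769, 5439 and 5348 CPM in T cells, 6370.4, 6055 and 6242 in NK cells, 5205, 5692 and 5102 in ILC1, 8639, 8425 and 8868 in B cells and 8438, 7882 and 8559.7 in myeloid cells. In T, NK and ILC1 cells their order differed from that of the HSP70 sum, and in B and myeloid cells it was the same. In each class their highest level was at most 1.12 times their lowest, and their part in the result was not tested.

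Dnajb1 encodes the main inducible HSP40 partner of HSP70, and its differences between libraries were smaller than those of Hspa1a and Hspa1b. It was present in 72.4%, 63.3% and 74.5% of T cells, at 191 (185 to 198), 152 (147 to 157) and 228 (220.0 to 236) CPM. B cells had 176, 152 and 229.8 CPM, NK cells 186, 168 and 231, ILC1 128, 139.7 and 169 and myeloid cells 92.6, 99.4 and 106. Myeloid cells, the highest class for Hspa1a, were the lowest for Dnajb1, with no overlap with ILC1, the next class. Under HDCA in WT mice the Dnajb1 ratio was 0.796 (0.758 to 0.835) in T cells, 0.865 (0.807 to 0.928) in B cells, 0.902 (0.807 to 1.01) in NK cells, 1.09 (0.835 to 1.43) in ILC1 and 1.07 (0.945 to 1.22) in myeloid cells. In the knockout it was 1.496 (1.43 to 1.57) in T cells, just under 1.5-fold, 1.51 (1.42 to 1.61) in B cells, 1.37 (1.24 to 1.53) in NK cells, 1.21 (0.982 to 1.5) in ILC1 and 1.07 (0.947 to 1.2) in myeloid cells. The myeloid interval covers 1 in both comparisons, although Hspa1a and Hspa1b were 2.57 times higher in the same knockout cells.

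Hsph1 encodes HSP110, the nucleotide exchange factor of HSP70, and it did not follow the other inducible members in the knockout. Its level was 119 (114 to 125), 108 (104 to 112) and 92.5 (87.6 to 97.7) CPM in T cells and 133 (119 to 147), 113 (103 to 122) and 71.5 (61.9 to 82.2) CPM in NK cells, with the knockout lowest in both. In ILC1 it was 101, 99.5 and 57.1 CPM, in B cells 98.7, 84.9 and 85.2 and in myeloid cells 53.1, 53.3 and 41.4. The knockout ratio was 0.574 (0.432 to 0.767) in ILC1, 0.636 (0.538 to 0.749) in NK cells, 0.777 (0.647 to 0.93) in myeloid cells, 0.859 (0.802 to 0.918) in T cells and 1.003 (0.914 to 1.1) in B cells. Under HDCA in WT mice it was 0.902 (0.851 to 0.958) in T cells, 0.849 (0.743 to 0.971) in NK cells and 0.861 (0.784 to 0.945) in B cells, with ILC1 and myeloid cells at 0.986 and 1.004 (0.847 to 1.19).

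Summed over the 4 members, the inducible level was 344, 284 and 411 CPM in T cells, 379, 298 and 394 in NK cells, 241, 268 and 297 in ILC1, 346, 273 and 478 in B cells and 274, 254 and 408 in myeloid cells. Between 25.97% and 58.6% of these UMIs were Dnajb1. The sum under HDCA in WT mice had a ratio of 0.825 (0.796 to 0.855) in T cells, 0.785 (0.725 to 0.85) in NK cells, 0.789 (0.75 to 0.83) in B cells, 0.925 (0.858 to 0.998) in myeloid cells and 1.11 (0.917 to 1.35) in ILC1. In the knockout the sum had a ratio of 1.75 (1.67 to 1.83) in B cells, 1.61 (1.5 to 1.71) in myeloid cells, 1.45 (1.4 to 1.5) in T cells, 1.32 (1.22 to 1.43) in NK cells and 1.11 (0.951 to 1.29) in ILC1. At least 1 inducible UMI was found in 86.2%, 80.6% and 84.5% of T cells, 74%, 75.9% and 72.3% of NK cells, 72.7%, 73.9% and 76.8% of ILC1, 67.7%, 63.6% and 70.8% of B cells and 77.2%, 74.2% and 80.9% of myeloid cells. At least 3 inducible UMIs were found in 41%, 31.8% and 44.4% of T cells and 19.2%, 14.3% and 26.8% of B cells.

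**Figure D3:**
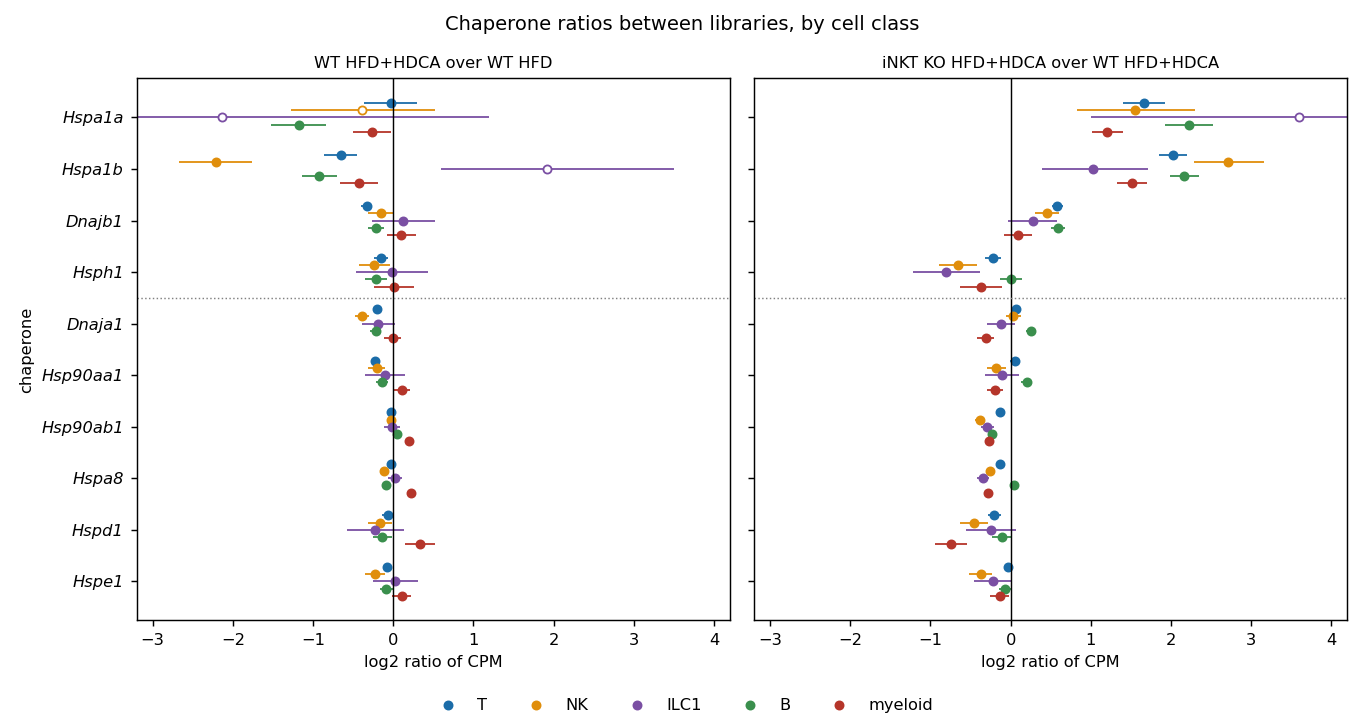
log2 ratio of CPM (x axis) of each chaperone (y axis) in WT HFD+HDCA over WT HFD (left) and iNKT KO HFD+HDCA over WT HFD+HDCA (right), for 5 cell classes (colours), with exact 95% intervals as bars and open points for genes under 50 UMIs. Inducible members stand above the dotted line. Hspa1a and Hspa1b spread furthest from 0, and most constitutive members stay near it, with Hspd1 in knockout myeloid cells lowest among them at a ratio of 0.599. Intervals of Hspa1a in ILC1 run past the axis.

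The constitutive members, taken as a sum, differed less between libraries than the sum of Hspa1a and Hspa1b in each class. Their summed level was 5691, 5468 and 5105 CPM in T cells, 6078, 5560.1 and 4605 in NK cells, 5552, 5463 and 4493 in ILC1, 4513, 4337 and 4249 in B cells and 4441, 5069 and 4192 in myeloid cells, and at least 99.1% of the cells of any class and library carried at least 1 UMI. Under HDCA in WT mice the ratio of the sum was 0.961 (0.953 to 0.969) in T cells, 0.915 (0.897 to 0.933) in NK cells, 0.984 (0.945 to 1.02) in ILC1, 0.961 (0.948 to 0.974) in B cells and 1.14 (1.12 to 1.16) in myeloid cells. The myeloid class was the only class above 1, and its ratio was 1.05 in classical monocytes alone, 1.29 in patrolling monocytes alone, and 1.16 in cells with at most 1 UMI of the neutrophil list. In the knockout the ratio of the sum was 0.934 (0.925 to 0.942) in T cells, 0.828 (0.811 to 0.846) in NK cells, 0.822 (0.794 to 0.852) in ILC1, 0.98 (0.967 to 0.993) in B cells and 0.827 (0.812 to 0.842) in myeloid cells. The constitutive sum did not differ less than the inducible sum in every class. In knockout ILC1 the inducible ratio was 1.11 (0.951 to 1.29), and in myeloid cells under HDCA it was 0.925 (0.858 to 0.998).

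Hspa8 encodes HSC70, the HSP70 of unstressed cells, and was found in at least 97.7% of the cells of every class and library. Its level was 2311, 2274 and 2079.9 CPM in T cells, 2596, 2394 and 2011 in NK cells, 2438, 2468 and 1948 in ILC1, 1805, 1695 and 1752 in B cells and 2157, 2523 and 2079 in myeloid cells. B cells were lowest, and their range over the libraries did not overlap that of T cells, the next class. The knockout ratio was 0.79 (0.749 to 0.832) in ILC1, 0.824 (0.804 to 0.845) in myeloid cells, 0.84 (0.814 to 0.868) in NK cells, 0.915 (0.902 to 0.928) in T cells and 1.03 (1.01 to 1.06) in B cells. Hspa8 and the Hspa1a and Hspa1b pair thus stood on opposite sides of 1 in knockout T, NK, ILC1 and myeloid cells.

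Hsp90ab1 and Hsp90aa1 encode the constitutive and the more inducible form of cytosolic HSP90. Hsp90ab1 was 1973, 1936 and 1762 CPM in T cells, 1872, 1836 and 1407 in NK cells, 1863, 1847 and 1513 in ILC1, 1556, 1607 and 1371 in B cells and 1383, 1582 and 1313 in myeloid cells. It was lowest in the knockout in all 5 classes, with ratios from 0.766 (0.738 to 0.796) in NK cells to 0.91 (0.896 to 0.924) in T cells. Hsp90aa1 was 357, 305 and 316 CPM in T cells, 422, 366 and 323 in NK cells, 321, 298 and 277 in ILC1, 334, 303 and 348 in B cells and 299.6, 323 and 283 in myeloid cells. In the knockout its ratio was 1.15 (1.1 to 1.2) in B cells and 0.883 (0.814 to 0.957) in NK cells, on opposite sides of 1. Under HDCA in WT mice it was 0.855 (0.826 to 0.885) in T cells, 0.867 (0.806 to 0.934) in NK cells and 0.906 (0.862 to 0.953) in B cells.

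Dnaja1, a second HSP40 partner of HSP70, was 543, 471 and 492 CPM in T cells, 661, 507 and 518 in NK cells, 507, 446 and 411 in ILC1, 407, 349.6 and 415 in B cells and 294, 293 and 236 in myeloid cells. Myeloid cells were lowest, apart from B cells, the next class. Its HDCA ratio in WT mice was 0.766 (0.722 to 0.814) in NK cells, 0.858 (0.82 to 0.899) in B cells, 0.868 (0.844 to 0.892) in T cells and 0.996 (0.928 to 1.07) in myeloid cells. In knockout B cells it was 1.19 (1.14 to 1.24) and in knockout myeloid cells 0.806 (0.747 to 0.868).

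Hspd1 and Hspe1 encode the HSP60 and HSP10 of mitochondria and share the cores printed above. Hspd1 was 155, 148 and 129 CPM in T cells, 214, 191 and 139.8 in NK cells, 173, 149 and 125 in ILC1, 122, 111 and 103 in B cells and 88.9, 112 and 67 in myeloid cells. Hspe1 was 352, 333 and 327 CPM in T cells, 313, 266 and 206 in NK cells, 249.8, 255 and 219 in ILC1, 289, 272 and 259 in B cells and 219, 235 and 214 in myeloid cells, and T cells stood apart from B cells, the next class, as the highest. In myeloid cells the Hspd1 ratio was 1.26 (1.11 to 1.43) under HDCA in WT mice and 0.599 (0.521 to 0.686) in the knockout, while Hspe1 had 1.08 (0.992 to 1.17) and 0.909 (0.838 to 0.985). In NK cells both were lower in the knockout, at 0.73 (0.647 to 0.823) for Hspd1 and 0.772 (0.698 to 0.852) for Hspe1. The knockout Hspd1 ratio in myeloid cells was the only 1.5-fold difference of a constitutive member in the 2 comparisons and 5 classes. In myeloid cells with no UMI of the division genes Mki67 and Top2a, a comparison added after seeing the data, it was 0.693 (0.597 to 0.803), short of 1.5-fold.

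Within classes, the level of the Hspa1a and Hspa1b sum differed between subsets. Effector-gated T cells (at least 2 UMIs of Ccl5, Nkg7, Cxcr3 and Cxcr6 and none of a naive T cell list that includes Ccr7 and Lef1) had 35.7 (27.1 to 46.1), 43.5 (35.1 to 53.4) and 161 (143 to 180.2) CPM and naive-gated T cells 20.4 (15.8 to 25.9), 12.8 (8.73 to 18.2) and 71.3 (61 to 82.9) CPM, so the effector gate was higher in each library. Under HDCA in WT mice the ratio was 0.629 (0.397 to 0.977) in naive-gated and 1.22 (0.869 to 1.73) in effector-gated T cells. These intervals overlap, and that of the effector gate covers 1. The sum of all inducible members had a ratio of 0.859 (0.771 to 0.958) in effector-gated T cells, below 1 as in the whole class. CD4 T cells had 32.9, 30.3 and 107 CPM of Hspa1a and Hspa1b and CD8 T cells 32.1, 22.1 and 58.4 CPM. iNKT-type T cells, which carry the invariant TCR alpha chain, had 48.5 and 29.4 CPM in the WT libraries, from 301 and 400 cells. The knockout library also had a barcode in this gate, with 10 UMIs of the pair and 53 of the constitutive members. That is too little for a level, and its origin was not tested. Without iNKT-type T cells the T cell ratio was 0.747 under HDCA in WT mice and 3.88 in the knockout.

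Klrg1 encodes a receptor of mature NK cells. NK cells with no Klrg1 UMI had 56.7, 23.1 and 68.2 CPM of the HSP70 pair, and those with Klrg1 had 65.5, 12 and 107 CPM. Klrg1-positive NK cells thus had the lower level in WT HFD+HDCA and the higher level in the knockout, and their knockout ratio was 8.96 against 2.95 without Klrg1, a difference that was not tested. B cells with Fcer2a, a receptor of follicular B cells, had 77.7, 34.5 and 169 CPM, and B cells with Vpreb3 but no Fcer2a had 62.2, 44.7 and 181 CPM. Patrolling monocytes had 184 (151 to 222), 184 (160.1 to 211) and 432 (389 to 477) CPM and classical monocytes 111 (97.1 to 127), 87.7 (78.9 to 97.3) and 191 (173 to 211) CPM, so patrolling monocytes were higher in each library. Dendritic cells had 159, 101 and 472 CPM from 38, 123 and 25 cells and plasmacytoid dendritic cells 48.1, 11.3 and 106 CPM from 39, 74 and 54 cells. In patrolling monocytes the HDCA ratio was 1.002, and in classical monocytes 0.79.

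The 1% of cells with most UMIs of Hspa1a and Hspa1b held 30.2%, 34.2% and 24.7% of the pair's UMIs in T cells, 40.6%, 35.4% and 20.4% in B cells and 14.3%, 20.8% and 16.4% in myeloid cells. Such a share depends on the mean count of a gene and describes the pair alone. The most in a single cell was 20, 20 and 32 UMIs in T cells and 19, 36 and 45 in myeloid cells. Cells with at least 3 UMIs of the pair made up 2.78%, 1.55% and 7.38% of T cells, 3.55%, 1.71% and 9.22% of B cells and 14.1%, 11.4% and 25.4% of myeloid cells, highest in the knockout in each.

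B cells that carried Hspa1a or Hspa1b more often carried Dnajb1 and the constitutive member Dnaja1 as well, beyond counting error in each library. Among cells thinned to 2000 UMIs, 116, 126 and 251 T cells and 126, 138 and 317 B cells had a UMI of the pair. In T cells the share with Dnajb1 was 42.2% against 32.2%, 37.3% against 25.1% and 44.2% against 34.9% of cells with and without the pair, and in B cells 49.2% against 27.4%, 37.7% against 26% and 47.9% against 31.9%. In B cells of WT HFD the values with intervals were 49.2% (40.2% to 58.3%) against 27.4% (25.2% to 29.7%). The intervals did not overlap in B cells of any library, nor in T cells of WT HFD+HDCA and the knockout, and they overlapped in T cells of WT HFD. In myeloid cells the same shares were 10.2% against 15.2%, 16.3% against 16.8% and 26.4% against 18.9%, with overlapping intervals in each library. Fos, an immediate early gene, gave 37.1% against 41.1%, 36.5% against 37.5% and 38.2% against 37% in T cells and 60.3% against 65.7%, 70.3% against 62.1% and 68.8% against 64.1% in B cells, and these intervals overlapped in each library. Jun, also an immediate early gene, gave 42.1% against 33.4%, 39.9% against 33.4% and 42% against 35.7% in B cells, again with overlap in each library. In knockout NK cells Jun gave 42.6% (28.3% to 57.8%) against 23.4% (19.5% to 27.6%), with no overlap. Dnajb1 there gave 57.4% (42.2% to 71.7%) against 34.5% (30% to 39.1%), also with no overlap. The same held for Hsp90aa1, at 66% (50.7% to 79.1%) against 44.4% (39.7% to 49.2%). For Jun, Dnajb1 and Hsp90aa1 the intervals overlapped in NK cells of both WT libraries. Hsp90aa1 gave 60.3% against 47.4%, 55.6% against 41.8% and 51.8% against 41.8% in T cells, with no overlap in any library. In B cells its intervals overlapped in both WT libraries and not in the knockout. Dnaja1 gave 64.3% against 51.3%, 60.9% against 48.8% and 60.9% against 52.6% in B cells, with no overlap in any library. The inducible member Hsph1 gave 18.3% against 15.9%, 16.7% against 15.7% and 21.1% against 14.5% in B cells. Its intervals overlapped in both WT libraries and not in the knockout. These are shares of cells within a library, and cells are not replicates.

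**Figure D4:**
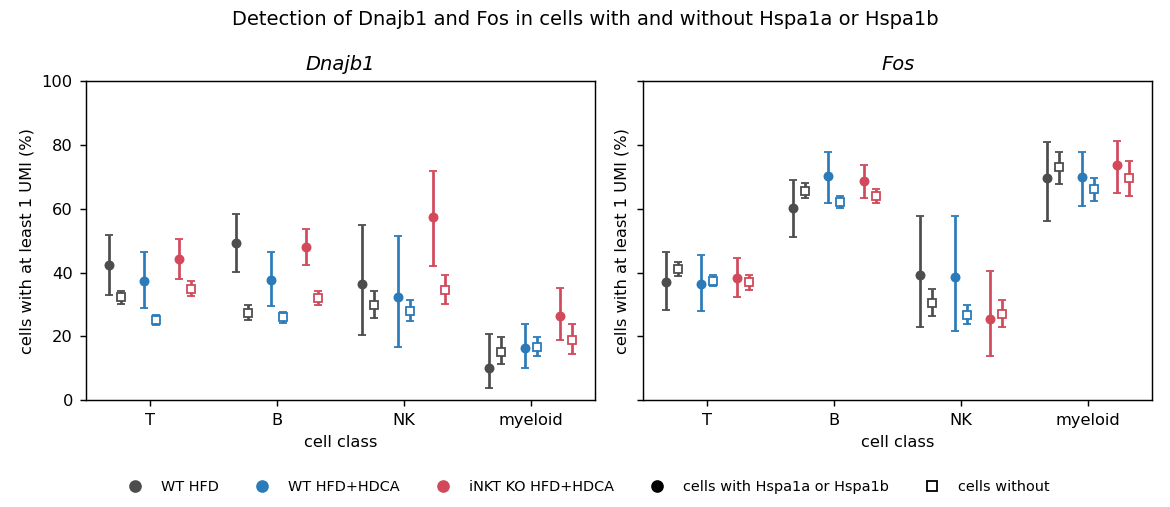
Share of cells with at least 1 UMI (y axis, percent) of Dnajb1 (left) and Fos (right) among cells with (filled) and without (open) Hspa1a or Hspa1b, by class and library, after thinning to 2000 UMIs, with exact Clopper-Pearson 95% intervals. In B cells of WT HFD, Dnajb1 was found in 49.2% of cells with the pair and 27.4% of the others.

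Dividing T cells (at least 2 UMIs of Mki67 and Top2a) held more Hsp90aa1, Hspa8 and Hspd1 and less Hspe1 than other T cells in each library. There were 59, 78 and 41 such cells, set against 2087, 2912 and 1789 T cells with none of these UMIs. Hsp90aa1 was 528 against 349, 499 against 297 and 455 against 311 CPM, a ratio of 1.52 (1.36 to 1.68), 1.68 (1.52 to 1.86) and 1.46 (1.27 to 1.68). Hspa8 had ratios of 1.31 (1.26 to 1.37), 1.21 (1.16 to 1.26) and 1.27 (1.2 to 1.34) and Hspd1 of 1.45 (1.23 to 1.71), 1.44 (1.23 to 1.68) and 1.37 (1.08 to 1.71), all above 1. Hspe1, the partner of Hspd1, had ratios of 0.816 (0.706 to 0.938), 0.764 (0.664 to 0.874) and 0.758 (0.627 to 0.91), all below 1, so the partners went in opposite directions in dividing T cells of each library. Hsp90ab1 had ratios of 0.996 (0.943 to 1.05), 0.982 (0.933 to 1.03) and 0.981 (0.914 to 1.05). Dnaja1 had ratios of 0.79 (0.703 to 0.886), 1.01 (0.907 to 1.11) and 0.842 (0.727 to 0.97), below 1 beyond counting error in WT HFD and the knockout. Of the inducible members, Hsph1 had ratios of 1.06 (0.845 to 1.31), 0.811 (0.635 to 1.02) and 1.05 (0.764 to 1.42), and its intervals cover 1 in each library. Dnajb1 had ratios of 0.87 (0.719 to 1.05), 0.923 (0.762 to 1.11) and 0.746 (0.592 to 0.929), below 1 beyond counting error in the knockout only. Dividing myeloid cells were 11, 31 and 11, against 350, 748 and 394 that did not divide. There Hspd1 had ratios of 2.01 (1.36 to 2.9), 2.7 (2.24 to 3.24) and 1.1 (0.592 to 1.88) and Hspe1 of 1.47 (1.11 to 1.9), 1.53 (1.3 to 1.78) and 0.826 (0.568 to 1.16), so both partners were higher in dividing myeloid cells of the WT libraries, unlike in T cells.

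**Figure D5:**
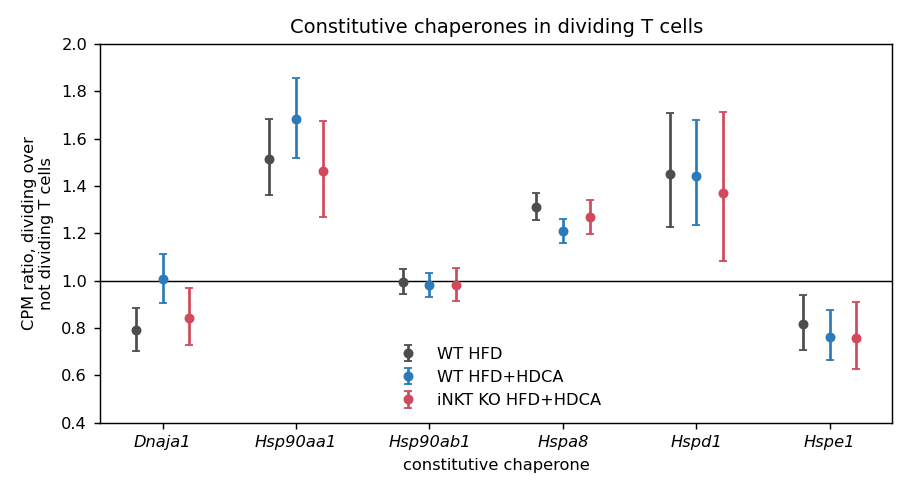
Ratio of CPM in dividing over not dividing T cells (y axis) for the 6 constitutive chaperones in the 3 libraries (colours), with exact 95% intervals. Hsp90aa1, Hspa8 and Hspd1 lie above 1 and Hspe1 below 1 in all 3 libraries.

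Other chaperones were described by lists, each by the median log2 ratio of its genes with at least 50 UMIs. Over all genes this median was between -0.01 and 0.01 under HDCA in WT mice and between -0.04 and 0.03 in the knockout. Of 14 genes induced by HSF1 or stress, 9 of 11 measured were lower in T cells under HDCA (median -0.09) and 8 of 10 were higher in knockout T cells (median 0.12), where 46.5% and 41% of all genes were. Of these, Chordc1, a partner of HSP90, was 133, 114 and 94.2 CPM in T cells and had a knockout ratio of 0.827 (0.773 to 0.883) in T cells, below 1 like Hsph1. Co-chaperones of HSP70 and HSP90 were lower for 14 of 18 genes in knockout myeloid cells (median -0.19) and higher for 14 of 18 in myeloid cells under HDCA in WT mice (median 0.12), where 51.3% and 51.1% of all genes were. Both comparisons share the WT HFD+HDCA library.

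The TRiC chaperonin, a ring that folds actin and tubulin, was lower for 8 of 8 genes in knockout NK cells (median -0.24) and for 8 of 8 in knockout myeloid cells (median -0.21), with none past 1.5-fold, where 53.7% and 51.3% of all genes were lower. In knockout T cells its genes Cct5 and Cct4 were at 1.001 (0.955 to 1.05) and 1.007 (0.959 to 1.06), and Cct2 at 0.937 (0.892 to 0.983). In knockout ILC1 the intervals of Cct5, Cct4 and Cct2 cover 1. Chaperones of the endoplasmic reticulum were lower for 11 of 14 genes in knockout T cells (median -0.14), among them Hsp90b1 at 0.796 (0.765 to 0.828) and Hspa5, which encodes BiP, at 0.828 (0.798 to 0.859). They were lower for 11 of 14 in knockout B cells (median -0.08). In knockout NK cells Hsp90b1 was at 0.882 (0.826 to 0.942) and Hspa5 at 0.811 (0.758 to 0.868), and in knockout ILC1 both intervals cover 1. Of all genes, 59% were lower in knockout T cells and 44.4% in knockout B cells. Mitochondrial chaperones and proteases had medians near that of all genes, at -0.06 in knockout T cells against -0.04 for all genes, and at 0.03 in knockout B cells against 0.03. Of the 3 measured genes of the heat shock factor list, Hsbp1 had ratios of 1.06 (0.995 to 1.14) under HDCA and 0.955 (0.891 to 1.02) in the knockout in T cells, and both intervals cover 1. Hsf1, the factor that drives the inducible members, was 52, 59.1 and 50.8 CPM in T cells and 67.3, 69 and 64 CPM in B cells. Its knockout ratio was 0.859 (0.784 to 0.941) in T cells, 1.12 (0.919 to 1.37) in NK cells and 0.845 (0.598 to 1.21) in ILC1. The sum of its targets Hspa1a and Hspa1b was higher in the knockout in each of these classes.

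Across the 15 levels of 5 classes in 3 libraries, the gene whose log2(CPM + 10) pattern was most like the constitutive sum was Cct7, a TRiC subunit (Pearson r = 0.85), followed by Mrpl21 (0.85), Sik3 (0.84), Chordc1 (0.84) and Birc6 (0.84), among 3370 genes of at least 50 CPM on average. Most like the inducible sum were Luc7l3 (0.77), Tob2 (0.68), Tuba1a (0.68), Pias1 (0.63) and Eif5 (0.60). The levels share libraries and depth, and the correlations describe these 15 values. Among the members, Hspa1a and Hspa1b had r = 0.78, and Hspa1a and Hsph1 had r = -0.80.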

How the data were processed

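Liver mononuclear cells of 3 groups gave 3 RNA libraries and 3 TCR libraries. The deposited values are UMI counts per gene and cell, made with Cell Ranger 8.0.1 per the file headers and not normalized by the authors. The submitters' processing notes name mm10 and GRCm39, and no source used here names the annotation release. Total UMIs per library ranged from 44332213 to 70776925.

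A barcode was kept where it had 200 or more genes and less than 10% of its UMIs from mitochondrial genes. Scrublet (scanpy 1.11.5) marked 243, 494 and 282 barcodes as doublets, which were left out. Classes came from TCR contigs and marker UMIs, and 1199, 1885 and 1503 cells entered no class, beside 11, 26 and 32 that tied between NK and ILC1. Of the cells in no class, 510, 810 and 757 met the B cell minimum but carried over 2 UMIs of Lyz2, Csf1r and Cst3. UMIs of a class were summed per library and given as CPM with exact Poisson 95% intervals. Shares have exact Clopper-Pearson intervals, and ratios of 2 libraries have conditional exact intervals (scipy 1.17.1). All cover counting error only, and with 1 library per group no test of a group difference was made. Gene shares past 1.5-fold are over genes with at least 50 UMIs in both libraries together. The ratio calculation was checked on simulated counts. Those were Poisson draws, in which UMIs are independent as the intervals assume. The check therefore does not cover genes whose UMIs gather in few cells.

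All 10 members are named. Of the 7 other lists, the named genes come from the 3 with most UMIs, and the genes most like a sum are the 5 with the highest correlation. Some genes of the marker lists, the other lists and the correlations are not reported here. The members and lists were chosen with earlier results of these data known. Alternatives were doublets kept, a 5% mitochondrial limit, stricter gates, thinning to 2000 UMIs, means over cells, leaving out the 1% of cells with most inducible UMIs, totals without abundant gene families, and T and NK subsets. Monocyte subsets, a limit on neutrophil markers, no limit on foreign markers, myeloid cells that do not divide, and all alternatives of the Hspa1a and Hspa1b sum were added after seeing the data.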

Additional observations from a re-analysis of the deposited data

Results flagged for a closer look

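Under HDCA in WT mice, Hspa1b and its sum with Hspa1a lay on opposite sides of 1 in ILC1 and the other classes. The Hspa1b ratio, WT HFD+HDCA over WT HFD, was 0.634 (0.551 to 0.731) in T cells, 0.217 (0.157 to 0.296) in NK cells, 0.529 (0.455 to 0.613) in B cells and 0.744 (0.633 to 0.875) in myeloid cells, but 3.78 (1.52 to 11.3) in ILC1, which had 6, 25 and 114 UMIs in the 3 libraries. For the Hspa1a and Hspa1b sum the ratio was 0.716 in T cells, 0.281 in NK cells, 0.502 in B cells and 0.787 in myeloid cells, against 2.36 in ILC1. With 1 library per group the difference between classes was not tested, and the ILC1 ratio of the sum fell below 1 with stricter gates, at 0.569. Another 8 pairs of gene or sum and comparison had classes with intervals on opposite sides of 1 but no class past 1.5-fold, a size limit chosen after the values were seen. They were Hsp90aa1, Hsp90ab1, Hspa8, Hspd1 and the constitutive sum under HDCA, and Dnaja1, Hsp90aa1 and Hspa8 in the knockout, with ratios between 0.790 and 1.26.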

How the results depend on the processing

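No paired analysis was possible because each group had 1 library and replicate numbers pair nothing. Over 270 alternative values of the inducible, constitutive and Hspa1a and Hspa1b (HSP70 pair) ratios, 213 stayed within the counting interval of the reported value, 52 moved out of it, and 5 crossed to the other side of 1 from an interval that excluded 1. In all, 261 kept their direction. For 8 the value moved by over 1.5-fold, all of the HSP70 pair and at most 4.15-fold. Each changed value follows as a ratio, and the cause was not tested. With stricter gates, the inducible sum gave HDCA 0.856 in T, 0.82 in ILC1 and knockout 1.39 in ILC1, 1.63 in B. With stricter gates, the constitutive sum gave HDCA 1.04 in ILC1, 0.943 in B and knockout 0.946 in T, 0.919 in NK, 0.779 in ILC1. With stricter gates, the HSP70 pair gave HDCA 0.375 in NK, 0.569 in ILC1 and knockout 8.73 in ILC1, 3.65 in B. In naive-gated T cells alone, the inducible sum gave HDCA 0.742 in T and knockout 1.59 in T. In naive-gated T cells alone, the constitutive sum gave HDCA 0.891 in T and knockout 1.02 in T. In naive-gated T cells alone, the HSP70 pair gave HDCA 0.629 in T and knockout 5.55 in T. In effector-gated T cells alone, the inducible sum gave HDCA 0.859 in T and knockout 1.52 in T. In effector-gated T cells alone, the constitutive sum gave HDCA 0.982 in T and knockout 0.894 in T. In effector-gated T cells alone, the HSP70 pair gave HDCA 1.22 in T. In patrolling monocytes alone, the inducible sum gave HDCA 1.05 in myeloid and knockout 1.74 in myeloid. In patrolling monocytes alone, the constitutive sum gave HDCA 1.29 in myeloid. In patrolling monocytes alone, the HSP70 pair gave HDCA 1.002 in myeloid and knockout 2.34 in myeloid. With cells thinned to 2000 UMIs, the inducible sum gave knockout 1.77 in myeloid. With cells thinned to 2000 UMIs, the constitutive sum gave HDCA 1.05 in ILC1 and knockout 0.774 in ILC1, 0.881 in myeloid. With cells thinned to 2000 UMIs, the HSP70 pair gave HDCA 0.411 in NK, 0.427 in B, 0.966 in myeloid. In classical monocytes alone, the inducible sum gave knockout 1.49 in myeloid. In classical monocytes alone, the constitutive sum gave HDCA 1.05 in myeloid and knockout 0.915 in myeloid. In classical monocytes alone, the HSP70 pair gave knockout 2.18 in myeloid. Without iNKT-type T cells, the constitutive sum gave HDCA 0.95 in T and knockout 0.954 in T. As means over cells, the constitutive sum gave HDCA 1.03 in ILC1 and knockout 0.846 in NK, 0.882 in myeloid. Without the 1% of cells with most inducible UMIs, the constitutive sum gave HDCA 0.932 in ILC1 and knockout 0.86 in ILC1. Without the 1% of cells with most inducible UMIs, the HSP70 pair gave HDCA 0.593 in B and knockout 1.53 in ILC1. With no limit on foreign markers, the constitutive sum gave HDCA 0.948 in B. With abundant gene families left out of the totals, the constitutive sum gave knockout 0.958 in T. In NK cells with no Klrg1 UMI, the constitutive sum gave knockout 0.875 in NK. In NK cells with no Klrg1 UMI, the HSP70 pair gave HDCA 0.408 in NK and knockout 2.95 in NK. In NK cells with Klrg1 UMIs, the constitutive sum gave knockout 0.796 in NK. In NK cells with Klrg1 UMIs, the HSP70 pair gave HDCA 0.183 in NK and knockout 8.96 in NK. Shares of cells moved beyond their intervals in 143 of 150 values after thinning, 40 of 150 with stricter gates, 2 of 150 with the 5% mitochondrial limit and 0 of 150 with doublets kept. A minimum of 100 UMIs left 70 of 70 list medians within their range. The range of a short list, such as TRiC or the constitutive members, ran from its lowest to its highest gene. A median over the same genes or some of them could not leave that range, so the count does not test the short lists. In myeloid cells with no UMI of Mki67 and Top2a, the Hspd1 ratio was 0.693 in the knockout and 1.19 under HDCA, against 0.599 and 1.26 in all myeloid cells. ILC1 had 99, 134 and 263 cells and 10 to 141 UMIs of the HSP70 pair.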

Other observations

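Cells outside the 5 classes also carried Hspa1a and Hspa1b. Cells in no class had 63.3, 35.6 and 118 CPM of the pair in 16.6%, 11.4% and 25.1% of cells, highest in the knockout. Cells tied between NK and ILC1 had 0, 2 and 2 UMIs of the pair, too few for a level. Among the genes most like the Hspa1a and Hspa1b sum over the 15 class and library values, a comparison added after seeing the data, were Gm19951 (Pearson r = 0.83), Brd2 (0.76), Rbm7 (0.76) and Ypel5 (0.74). In dividing T cells the ratio of the pair to cells that did not divide was 0.711 (0.411 to 1.15), 1.81 (1.23 to 2.58) and 0.96 (0.685 to 1.31), above 1 beyond counting error in WT HFD+HDCA only, and the difference between libraries was not tested. In dividing myeloid cells, 11, 31 and 11 cells, it was 0.941 (0.596 to 1.42), 0.118 (0.0473 to 0.245) and 0.365 (0.219 to 0.573), below 1 beyond counting error in WT HFD+HDCA and the knockout. These intervals treat each UMI as independent. Over the classes and libraries, the 1% of cells with most UMIs of the pair held 14.3% to 53.8% of them. A few cells could therefore set such a ratio.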
